A study of Danio rerio with 2 samples.

Results

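Genes that mark the intestinal epithelium, 8 of the 32057 in the deposited count table, were followed in RNA from dissected zebrafish (Danio rerio) hearts. They were chosen by symbol, with earlier results of these data known. Among them were the caudal homeobox genes cdx1b and cdx4, the villin gene vil1 and the aminopeptidase N genes anpepa and anpepb. The rest were the peptide transporter gene slc15a1b, the alkaline phosphatase gene alpi.1 and the lipid transfer gene mttp. Hearts were collected at 96 hours post fertilisation from foxc1a nju18 mutants, foxc1a being a gene for a forkhead factor, and from TU wild-type embryos. Each genotype is represented by 1 library, and no treatment is given for either. The sources used here do not give the zygosity of the fish, the nature of the allele or the number of hearts in a library.

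The lining of the gut absorbs food through enterocytes, whose apical face is folded into a brush border of microvilli. Caudal-type homeobox factors specify posterior and intestinal identity, and in the differentiated cell villin bundles the actin of the microvilli while membrane-bound peptidases, phosphatases and transporters complete digestion and take up the products. Dietary lipid leaves the enterocyte in lipoproteins that microsomal triglyceride transfer protein loads with fat, as the same protein does in the liver and in the yolk syncytial layer of the zebrafish embryo.

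The libraries held 17467109 reads counted to genes for the foxc1a nju18 sample (the nju18 library) and 20049851 for the wild-type TU sample (the TU library). foxc1a itself was counted at 798 and 629 reads, with a ratio of 1.78 (95% counting interval 1.60 to 1.98), so that its level gives no check on the labels, by which the libraries are named throughout. Levels are CPM, each gene's count scaled to a common library size after TMM scaling, a correction for RNA composition. Ratios are nju18 over TU, and log2 ratios have 1 CPM added to each value. A gene counted as measured at 5 CPM or more in either library, and a difference of at least 2-fold on the log2 scale was the rule of size, since 1 library per genotype allows no test. Intervals of ratios are exact Clopper-Pearson ones and those of levels exact Poisson ones. They account for counting error alone, so they set 1 library against another and not the genotypes. Of the tissue's defining markers, 20 of 20 cardiomyocyte genes were measured. Total-count scaling lowers log2 ratios by up to 0.29 relative to TMM, and it turns the split of 1178 genes higher and 1358 lower among all measured genes into 702 and 2166.

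Most of the 8 intestinal genes were more abundant in the nju18 library. Together they took 0.0923% of its reads and 0.0317% of the reads of the TU library, a ratio of 3.57 after TMM scaling (counting interval 3.47 to 3.67). vil1 supplied 58.1% and 62.2% of these reads, and without it the ratio was 3.96 (3.78 to 4.15). The measured genes cdx1b, vil1, anpepa, anpepb and mttp, 5 of the 8, were at least 2-fold higher, as were 9.61% of the 12259 measured genes. Of the 8, 0 were at least 2-fold lower, against 11.1% of measured genes. Because the 8 were chosen with earlier results of these data known, these shares describe them and test nothing. cdx4 lay under 5 CPM in both libraries and was also over 2-fold higher, which makes 6 of 8 with no filter, where 5.91% of the 25254 genes with a read were higher and 8.35% lower. slc15a1b was just short of 2-fold, and alpi.1 was nearly level. anpepa was measured only through its level in the nju18 library, so its inclusion and its direction are tied. Transcript in bulk tissue does not tell more cells from more RNA per cell, nor which cells the reads came from.

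**Figure D1:**
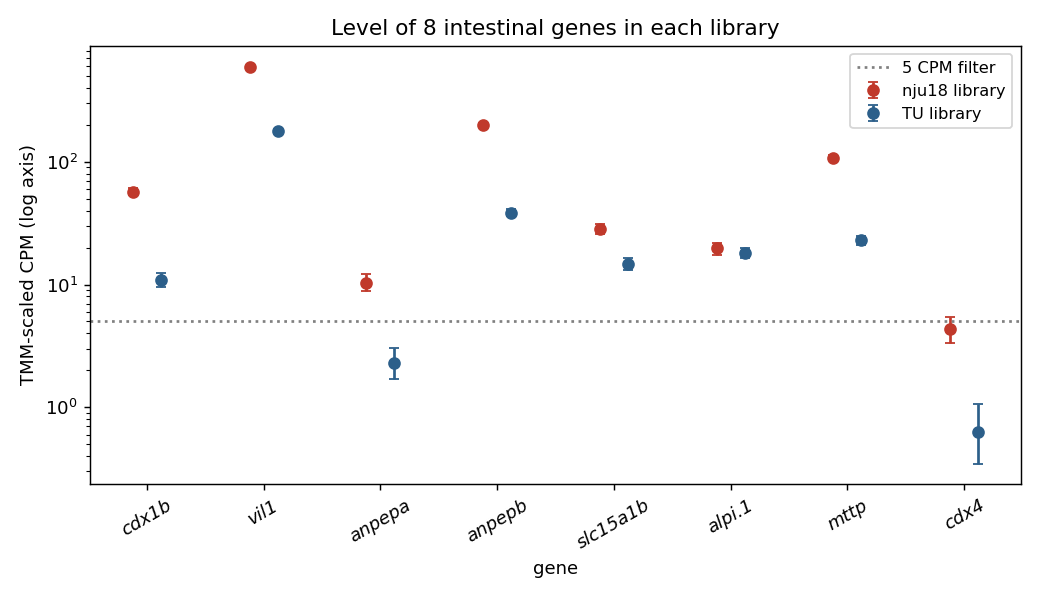
TMM-scaled CPM (log axis) of the 8 intestinal genes in the nju18 library (red) and the TU library (blue), with 95% counting intervals, and the 5 CPM filter as a dotted line. vil1 took the most reads in both, at 593 and 178 CPM, and only for alpi.1 do the points of the 2 libraries lie together.

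Among regulators of intestinal identity, both caudal genes were higher in the nju18 library. cdx1b (ENSDARG00000116139), a caudal homeobox factor of the developing zebrafish intestine, had 899 reads in the nju18 library and 242 in the TU library, or 56.9 and 10.9 CPM. Its ratio of 5.22 (counting interval 4.52 to 6.04) gave a log2 ratio of 2.28, above that of 99.2% of measured genes. The nju18 library was the high one, by a margin wider than counting error.

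cdx4 (ENSDARG00000036292), a caudal factor that patterns the posterior body and regulates hox genes in zebrafish, had the lowest level of the 8, per length as well as in reads. It had 68 reads in the nju18 and 14 in the TU library, or 4.31 and 0.631 CPM. The ratio of 6.82 carried a wide interval (3.80 to 13.1) because it rests on few reads. The ratio of cdx1b divided by that of cdx4 was 0.765, with an interval (0.390 to 1.40) that held 1. The paralog cdx1a, outside the 8, stood at 28.7 and 10.6 CPM, a ratio of 2.71 (2.31 to 3.19).

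vil1 (ENSDARG00000040466), which encodes the actin-bundling protein of microvilli, had the highest level of the 8, per length as well as in reads. It had 9369 and 3948 reads in the nju18 and TU library, or 593 and 178 CPM. Its ratio of 3.33 had the narrowest interval of the 8 (3.21 to 3.46), and it was smaller than that of cdx1b by a factor beyond counting error (1.57, 1.35 to 1.82).

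The aminopeptidases N trim amino acids from the ends of peptides at the brush border, and in mammals the enzyme is also found on myeloid cells and in the kidney. anpepb (ENSDARG00000103878) had 3162 and 856 reads, or 200.2 CPM in the nju18 and 38.6 CPM in the TU library, a ratio of 5.19 (counting interval 4.81 to 5.60). anpepa (ENSDARG00000041083) had 164 and 51 reads, or 10.4 and 2.3 CPM, a ratio of 4.52 (3.28 to 6.31). The genes differed greatly in level, and no difference in their ratios was detectable at this depth: per length, anpepb exceeded anpepa 20.4 times in the nju18 and 17.7 times in the TU library, and the ratio between their ratios was 1.15 (0.814 to 1.60).

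Names in this family differ between sources. RefSeq's gene table (assembly GRCz12tu) calls the gene that the count table names anpepa anpeplb, and it gives the name anpepa to a gene that the count table lists as si:ch211-106j24.1. That gene, looked up after the values had been seen, had 130 reads in the nju18 library and 3 in the other, a ratio of 60.8 with a counting interval from 20.4 to 299. A further gene described as aminopeptidase N-like, LOC100004744, had 99 and 53 reads (ratio 2.62, 1.86 to 3.73), and anpepla had 2 and 0 reads. All 4 aminopeptidase N genes with more than 2 reads were higher in the nju18 library, with the division of reads between similar copies uncertain. Of the 12259 measured genes, 6421 had a log2 ratio above 0. Of these aminopeptidase genes only anpepb reached 5 CPM in both libraries. The others reached it through the nju18 library only, so their inclusion and their direction are tied.

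slc15a1b (ENSDARG00000044528) encodes PepT1, the proton-coupled carrier of small peptides. It had 452 and 325 reads, or 28.6 CPM in the nju18 and 14.7 CPM in the TU library. Its ratio of 1.95 (counting interval 1.69 to 2.26) left its log2 ratio, 0.92, short of the rule, and total-count scaling brought the ratio to 1.60 (1.38 to 1.85). Of its paralogs, slc15a1a stood at 7.35 and 5.01 CPM, and slc15a2, carrier of the kidney in mammals, at 54 and 101 reads, under the filter.

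alpi.1 (ENSDARG00000015273), an intestinal alkaline phosphatase that removes phosphate from bacterial lipopolysaccharide, stood apart from the others. It had 311 reads in the nju18 and 403 in the TU library, or 19.7 and 18.2 CPM. The ratio of 1.08 had an interval (0.932 to 1.26) that held 1, and total-count scaling took it below 1 (0.886, 0.762 to 1.03). Its tandem duplicate alpi.2, the next gene along the chromosome in RefSeq's order, was 2-fold higher by the rule, at 13.2 and 4.33 CPM (ratio 3.06, 2.39 to 3.93). The rule by which reads were divided between the duplicates is not stated, and the contrast between them is uncertain.

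mttp (ENSDARG00000008637), whose product assembles apolipoprotein B into lipoproteins, was counted at 1700 and 507 reads, or 108 CPM in the nju18 and 22.9 CPM in the TU library. The ratio was 4.71 (counting interval 4.26 to 5.21). apobb.1, for the apolipoprotein B it loads, was higher in the same library, with 257 and 93.8 CPM and a ratio of 2.73 (2.59 to 2.88). The other apolipoprotein B genes were barely present, apoba with 24 and 35 reads and apobb.2 with 4 and 0, and p4hb, which encodes the partner subunit of the transfer protein, had 87.0 and 60.6 CPM.

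**Figure D2:**
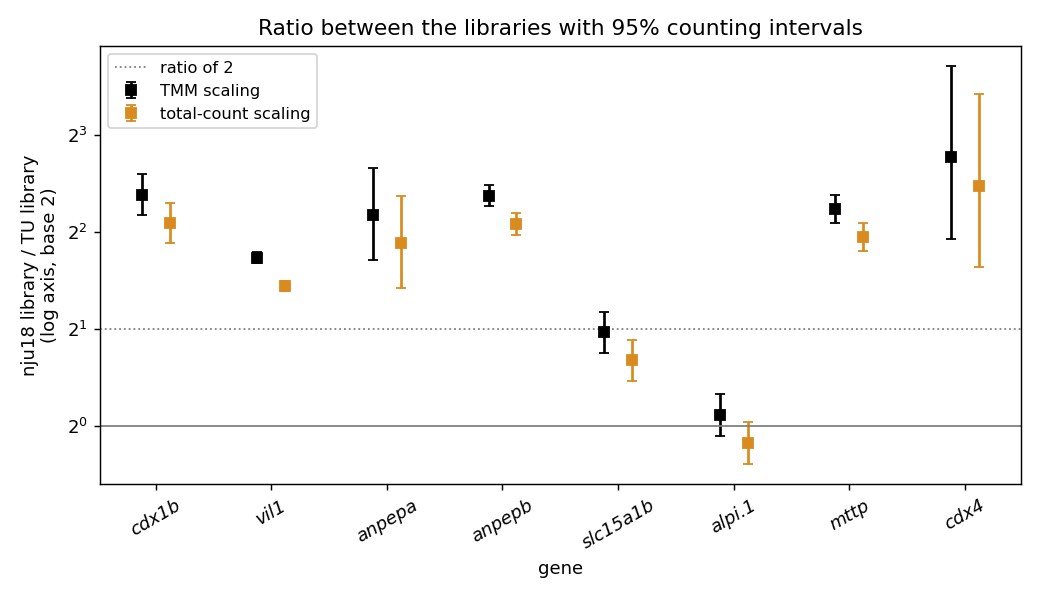
Ratio of the nju18 to the TU library for each of the 8 genes (log axis, base 2), with 95% counting intervals, under TMM (black) and total-count (orange) scaling. The other 6 genes lie above 2 under both scalings, slc15a1b lies just below it (1.95 and 1.60), and alpi.1 lies on either side of 1 (1.08 and 0.886).

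Most differences in ratio among the 8 set alpi.1, slc15a1b and vil1 apart. Of the 28 pairs among the 8 genes, 17 had a ratio of ratios whose 95% counting interval, not adjusted for the number of pairs, excluded 1, and 11 did not. cdx1b, anpepa, anpepb, mttp and cdx4, between 4.52 and 6.82, could not be separated from one another in any pair by counting error. alpi.1 and slc15a1b were each separated from every other gene. vil1 was separated from all but anpepa. This ordering does not depend on the scaling of the libraries, which moves all ratios by the same factor.

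Per length, from the deposited FPKM (reads per kilobase of transcript, scaled to a common library total), the order of levels differed somewhat between the libraries. In the nju18 library it ran from vil1 at 79.2 FPKM through anpepb (55.4), mttp (19.8), slc15a1b (9.84), cdx1b (9.56), alpi.1 (5.07) and anpepa (2.72) to cdx4 at 2.38. In the TU library it ran from vil1 at 29.1 FPKM through anpepb (13.1), slc15a1b (6.16), alpi.1 (5.73), mttp (5.15), cdx1b (2.24) and anpepa (0.736) to cdx4 at 0.426. Neighbours whose counting intervals overlapped were slc15a1b and cdx1b, and anpepa and cdx4, in the first, and slc15a1b and alpi.1, alpi.1 and mttp, and anpepa and cdx4 in the second. mttp and cdx1b were the genes that stood higher in the order of the nju18 library.

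**Figure D3:**
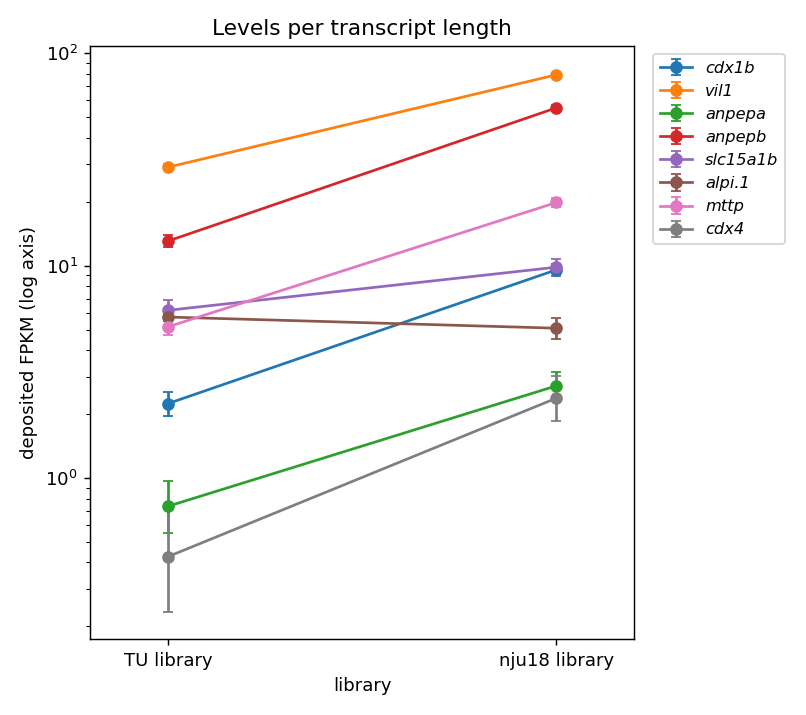
Deposited FPKM (log axis) of the 8 genes in the TU library (left) and the nju18 library (right), each gene joined by a line, with 95% counting intervals. Lines for mttp (5.15 to 19.8) and cdx1b (2.24 to 9.56) cross that of alpi.1 (5.73 to 5.07).

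The authors' deposited table, named for EBSeq, called 6 of the 8 genes higher in the nju18 library and 0 lower, where it called 4.24% of its 23256 genes higher and 7.63% lower. In the authors' deposited table the false discovery rates of the called genes were 2.1e-05 for cdx1b, 2.6e-05 for anpepb, 0.0001 for cdx4, 0.00011 for mttp, 0.00062 for anpepa and 0.029 for vil1. slc15a1b (0.663) and alpi.1 (0.944) were not called in the authors' deposited table. These rates come from the same 2 libraries and have no replicate behind them.

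The chromosomal neighbours of the 8 genes lay mostly within 2-fold, as did most genes. All 8 genes were placed in RefSeq's gene order (GRCz12tu, used for order only), and 13 of their 16 flanking protein-coding genes were measured. Of these, 3 were at least 2-fold higher, 1 lower and 9 between, where 9.61% of all measured genes were higher, 11.1% lower and 79.3% between. The higher ones were alpi.2, the aminopeptidase N-like gene LOC100004744 beside anpepb, and nppc, a natriuretic peptide gene beside alpi.1. Of these, alpi.2 and LOC100004744 reached the filter through the nju18 library only, so their inclusion and their direction are tied. kdrl, next to cdx4, had 79.4 and 73.8 CPM.

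Of the brush border genes outside the 8, about as many were 2-fold higher as lay between. Of 23 measured genes on a list of brush border and apical enterocyte genes (the 8 not among them), 12 were at least 2-fold higher in the nju18 library, 1 was lower and 10 lay between, with a median log2 ratio of 1.19 against 0.04 for all measured genes. The shares among all measured genes were 9.61% higher and 11.1% lower. This list and those that follow were chosen with earlier results of these data known, so their counts are description only. Among those with the largest log2 ratios were enpep, which encodes another apical aminopeptidase (32.4 and 6.04 CPM), the cadherin gene cdh17 (227 and 49.2 CPM) and the tetraspanin-like gene tm4sf4 (548 and 172 CPM). enpep and, in zebrafish, cdh17 are also genes of the kidney tubule. The ezrin gene ezra, for a linker of microvillar actin to the membrane, had 170 and 62.2 CPM, whereas its paralog ezrb had 181 and 314 CPM. The lower gene was lctla, at 2.28 and 6.18 CPM. Of the 12 higher genes, all were at 5 CPM or more in both libraries, whereas lctla reached it in the TU library only. With the 4-fold rule 3 of these genes were higher, against 1.45% of all measured genes.

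Transporter genes of the gut lay mostly on the same side but closer to parity. Of 21 measured, 6 were at least 2-fold higher, 0 lower and 15 between (median 0.76), where 9.61% of all measured genes were higher and 11.1% lower. The phosphate transporter genes slc34a2a (9.05 and 1.67 CPM) and slc34a2b (24.4 and 8.43 CPM), the anion exchanger gene slc26a3.2 (40.3 and 12 CPM) and the amino acid transporter gene slc6a19a.2 (47.9 and 18.8 CPM) led. slc5a1, the sodium-glucose carrier gene, had a ratio of 1.82 (1.65 to 2.01). Of the 6 higher genes, 2 reached the filter through the nju18 library only. With the deposited FPKM 3 were at least 2-fold higher, against 4.48% of all measured genes.

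Genes of fat absorption, in which mttp takes part, were higher more often than lower. Of 28 measured, 13 were at least 2-fold higher, 3 lower and 12 between (median 0.72). Among all measured genes 9.61% were higher and 11.1% lower, and the lower count here was near that share. The filter was reached in 1 library only by 1 of the higher and 2 of the lower genes. npc1l1, the sterol uptake gene of the brush border, had 59.0 and 8.66 CPM, apoc2 had 209 and 32.2 CPM, and the intracellular fatty acid binding gene fabp1b.1 had 396 and 118 CPM. The acyltransferase genes mogat2 (26.3 and 7.31 CPM) and dgat1a (26.2 and 5.37 CPM), which rebuild triglyceride in the enterocyte, were on the same side. Lower were fabp6, the ileal bile acid binding gene (4.62 and 70.4 CPM), apoea (2 and 195 reads, ratio 0.0144, counting interval 0.00173 to 0.0527) and apoa4b.2 (13.6 and 38.6 CPM). The bile acid uptake gene slc10a2, under the filter and named after its values were seen, was also lower, with 2 and 65 reads (ratio 0.0432, 0.00512 to 0.162). slc51a, for part of the bile acid exporter, had 5.95 and 9.88 CPM. nr1h4, which encodes the bile acid receptor, stood the other way at 6.65 and 0.361 CPM. The bile acid genes named here thus gave no single direction. fabp6 and slc10a2 were lower, and slc51a lay within 2-fold on the low side (ratio 0.603, 0.468 to 0.771). Of those named, nr1h4 alone was higher. nr1h4 reached the filter through the nju18 library only, and fabp6 through the TU library only.

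Transcription factors of gut and endoderm were higher for 9 of 22 measured genes and lower for 1, with 12 between (median 0.67). The list leaves out cdx1b and cdx4 but holds their relative cdx1a, 1 of the 9, which is also counted among the relatives. The shares over all measured genes were 9.61% and 11.1%. Besides nr1h4 the higher factors included the nuclear receptor genes nr5a2 (18 and 3.70 CPM) and hnf4g (15.6 and 4.51 CPM), and osr2 (14.8 and 3.83 CPM). These 4 and 1 more of the 9 reached the filter through the nju18 library only, which ties their inclusion to their direction. Among the 16 that reached 5 CPM in both libraries, 4 were higher, and 1 was lower, klf4, at 18.6 and 50.9 CPM. Of all 10054 genes that reached it in both, 781 were higher and 601 lower. cdx1a was 1 of these 4 higher factors. gata6 (88.9 and 43.3 CPM), another of the 4, is also on the cardiomyocyte list, as is gata4. With the deposited FPKM 4 of 22 factors were higher, against 4.48% of all measured genes. With a 20 CPM filter 3 of 12 were higher, against 10.5%. hnf4a, with 6 and 10 reads, was under the filter.

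Lists for other cell types of the gut had medians near or below 0. Over all measured genes 9.61% were higher and 11.1% lower, and in lists this short 1 higher gene is near that share. Among 14 measured genes of lysosome-rich enterocytes, which take up luminal protein, 0 were at least 2-fold higher, 0 lower and all 14 between (median 0.10, or -0.18 with total-count scaling). The endocytic receptor gene lrp2a, with 47.0 and 23.6 CPM, came nearest to the rule, followed by the protease genes ctsl.1 (19.9 and 36.2 CPM) and lgmn (138 and 80.5 CPM) and the endocytic adaptor gene dab2 (23.0 and 13.5 CPM). Goblet and secretory genes had 1 of 9 higher and 3 lower (median -0.51): the membrane mucin gene muc13b, an enterocyte gene as well in mammals, at 127 and 22.4 CPM, against agr2 (197 and 500.0 CPM), muc5.1 (123 and 302.1 CPM) and muc5.2 (5.32 and 16.4 CPM). Enteroendocrine genes had 1 of 12 higher, penka (26.3 and 8.43 CPM), and 3 lower (median -0.58), neurod1 at 14.9 and 53.8 CPM, pax6b at 4.05 and 17.5 CPM and sst1.1 at 1.01 and 7.17 CPM, all of them also neuronal or pancreatic genes. pax6b and sst1.1 reached the filter in the TU library only, and of the 6 enteroendocrine genes that reached it in both, 1 was higher and 1 lower.

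Most measured genes listed for tissues around the gut epithelium lay within 2-fold. The enteric neuron and gut smooth muscle list is not particular to the gut. It shares 1 gene with the cardiomyocyte list and 2 with the retina and neuron list. Of 16 measured enteric neuron and gut smooth muscle genes, 1 was higher, desmb (11.0 and 0.992 CPM), 0 were lower and 15 lay between (median 0.28, or -0.01 with total-count scaling). Of all measured genes, 9.61% were higher and 11.1% lower. desmb reached the filter through the nju18 library only, and of the 12 genes that reached it in both, 0 were higher. tagln had 102 and 55.2 CPM, ret 11.0 and 19.3 CPM, and phox2bb 2.91 and 6.63 CPM. Beside cdx4, 5 of 31 genes of the posterior body list were measured, and 3 of them differed by 2-fold. Of those, hoxb8a (10.4 and 2.44 CPM) and hoxb6a (5.64 and 1.80 CPM) were higher and hoxa13b (1.90 and 5.05 CPM) was lower, with cyp26a1 (10.7 and 5.95 CPM) and hoxb5a (21.7 and 23.9 CPM) between. Each of the 3 reached the filter only in the library where it was high, so that list gives no direction.

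Among 19 measured relatives of the 8 genes, the rule was passed by 6 in the higher and 2 in the lower direction (median 0.52). Of all measured genes, 9.61% were higher and 11.1% lower. Besides enpep, apobb.1, alpi.2 and cdx1a, the higher ones were svila, a supervillin gene (100.5 and 21.1 CPM), and erap2 (8.29 and 3.52 CPM). With the deposited FPKM 3 were higher, against 4.48% of all measured genes. alpi.2 and erap2 reached the filter through the nju18 library only, which ties their inclusion to their direction. Among the 14 relatives that reached it in both libraries, 4 were higher and 2 lower. Like svila, the lower ones belong to the villin and gelsolin family, scinla (8.61 and 26.8 CPM) and the villin-like gene vill (12.7 and 28.9 CPM). The rest of that family lay within 2-fold, with gsnb at 159 and 102 CPM, scinlb at 99.9 and 136 CPM, avil at 23.7 and 32.0 CPM and capgb at 44.8 and 38.2 CPM. The measured relatives of vil1 thus lay on both sides of parity. svila and gsnb were higher in the nju18 library, scinla, vill, scinlb and avil were higher in the TU library, and capgb changed side with total-count scaling. erap1b had 8.86 and 3.97 CPM, npepps 5.64 and 3.16 CPM and lnpep 34.4 and 28.3 CPM among the aminopeptidases, alpl stood at 12.9 and 18.2 CPM, and slc15a4 at 4.43 and 5.91 CPM.

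**Figure D4:**
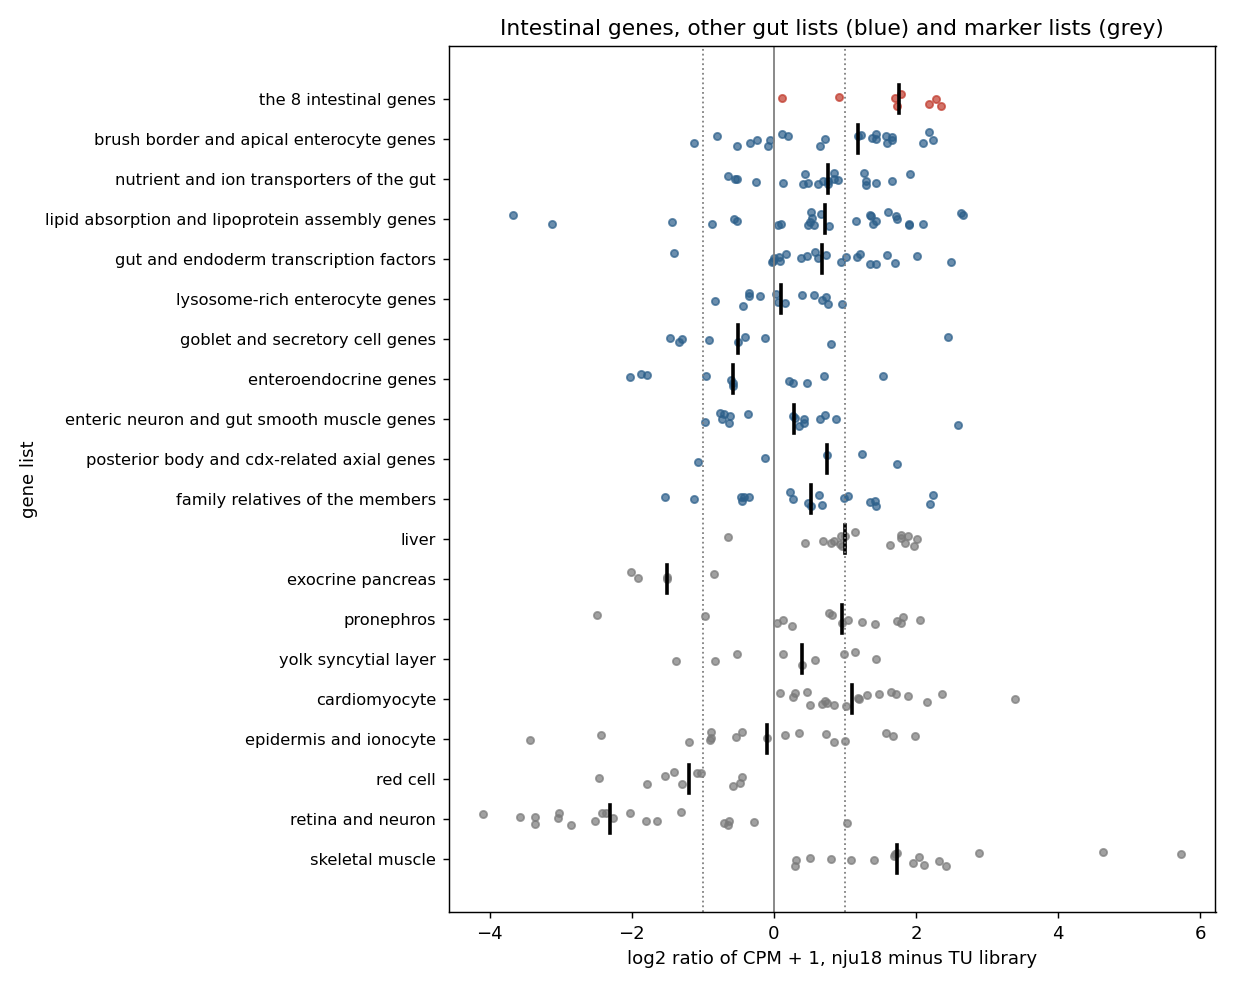
Log2 ratio of CPM plus 1, nju18 minus TU, for each of the 8 intestinal genes (red), and for measured genes of the other gut lists (blue) and of marker lists for other tissues (grey), with medians as black bars and 2-fold as dotted lines. The brush border list has its median at 1.19, and lysosome-rich enterocyte genes lie within 2-fold. The liver, pronephros, yolk syncytial layer, cardiomyocyte and skeletal muscle medians are also positive.

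Markers of other tissues differed between the libraries as well, and their part in the values above was not tested. Their counts stand beside 9.61% of all measured genes higher and 11.1% lower. Of the higher and lower genes in the next lists, 5 in liver, 4 in pronephros and 3 in exocrine pancreas reached the filter only in the library where they were high. So did 1 of the red cell genes and 2 of the retina and neuron genes, all through the TU library. Liver genes, in a tissue that also uses mttp, were at least 2-fold higher for 9 of 17 measured genes and lower for 0 (median 1.0, cyp2y3 standing for more than 1 gene ID). Their summed level was 693 and 278 CPM, with the hepatic fatty acid binding gene fabp10a at 34.7 and 10.6 CPM, and ahsg1 and rbp2b were at 0 in the nju18 and ahsg2 and rbp2b in the TU library. Pronephros genes, in an epithelium with a brush border of its own, were higher for 7 of 15 and lower for 1 (median 0.96), with summed levels of 490.0 and 278 CPM and slc12a1 at 0 in both. slc22a6l had 14.8 and 2.80 CPM, whereas the podocyte gene nphs1 had 0.317 and 6.36 CPM. Yolk syncytial layer genes, another site of mttp, were higher for 2 of 9 and lower for 1 (median 0.40), summing to 2641 and 2956 CPM, with vtg2 at 0 in both. Most of the 9 also stand on other lists here, the 2 higher ones included, so they are no separate readout of that tissue.

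Genes of the exocrine pancreas, an endodermal neighbour of the gut, had the lower summed level in the nju18 library, at 20.2 and 71.2 CPM. Of 5 measured genes 0 were higher and 4 lower (median -1.51), but only prss1, with 6.02 and 18.8 CPM, was at 5 CPM or more in both libraries. By reads, ctrb1 was at 0 in both libraries, with cpa1, cpb1, pla2g1b and rbpjl at 0 in the nju18 library. Cardiomyocyte genes were higher for 11 of 20 and lower for 0 (median 1.11, summed level 34881 and 11123 CPM), and skeletal muscle genes for 13 of 17 and 0 (median 1.73, 18218 and 4084 CPM). Epidermis and ionocyte genes were higher for 3 of 17 and lower for 3 (median -0.10, 20861 and 10780 CPM). For comparison, 9.61% of all measured genes were higher and 11.1% lower. Red cell genes were lower for 7 of 10 and higher for 0 (median -1.19, 899 and 2639 CPM), and retina and neuron genes lower for 15 of 20 and higher for 1 (median -2.31, 624 and 3692 CPM). The 8 intestinal genes summed to 1021 and 286 CPM. They thus differed between the libraries in the direction of muscle, liver and pronephros genes and against pancreas, red cell and retina genes.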

How the data were processed

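RNA of dissected, frozen zebrafish hearts at 96 hours post fertilisation was sequenced as 1 library per genotype, grouped by the genotype label. Tools named, without versions or settings, in the submitters' processing notes are HISAT2, featureCounts, Trimmomatic and bcl2fastq, with build GRCz11. The authors deposited raw counts per Ensembl gene, FPKM values (the count divided by the library total and 1 length per gene, as tested on the values), and a comparison table with a normalised signal (counts over size factors of 0.854 and 1.17), its ratio and log2 fold change, and an FDR, used as a q-value would be. The derivation of the FDR is not given in the sources used here.

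Counts were scaled by TMM (factors 0.904 and 1.11, edgeR 4.0.16, R 4.3.3). DESeq2 1.42.0 size factors were an alternative. Intervals of ratios (conditional binomial), of levels (Poisson) and of the ratio between members' ratios (conditional odds ratio) used scipy 1.17.1 in Python 3.11.15. Since PCR reads lacking molecular identifiers are not independent molecules, intervals cover counting error only. The 12259 genes at 5 CPM or more, of 25254 with a read, were the background. Members and the 19 lists (10 of gut genes, 9 of markers) were chosen with earlier results of these data known, and 24 of 447 listed symbols matched no gene. Named are the 8 members, the 4 measured genes of each gut list farthest from a log2 ratio of 0, and all measured relatives (1 gene that this rule takes is not reported here); further list genes (ezra, ezrb, slc5a1, fabp1b.1, mogat2, dgat1a, apoa4b.2, slc10a2, slc51a, hnf4a, hoxb5a, lctla, klf4), marker genes (prss1, fabp10a, slc22a6l, nphs1), neighbours (nppc, kdrl), unmeasured relatives (slc15a2, apoba, apobb.2) and the extra aminopeptidase genes were added after their values were seen. The scripts were tested on simulated counts. Planned promoter motifs were not analysed here, and no sequence is shown.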

Additional observations from a re-analysis of the deposited data

How the results depend on the processing

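Of the 7 measured members, the number at least 2-fold higher was 5 with TMM, total-count and DESeq2 scaling, with genes over 1% of a library left out of the total, with 0.25 or 5 CPM added and with the deposited FPKM. Over these settings 4.48% (FPKM) to 10.8% (0.25 CPM added) of all measured genes were higher. The number was 6 of 8 with no filter (5.91% of all genes), 4 of 5 with a 20 CPM filter (10.5%), 6 with a 1.5-fold rule (22.3%) and 3 with a 4-fold rule (1.45%). The count at least 2-fold lower was 0 in each of these settings. The authors' deposited table called 6 members, and 5 with an FDR below 0.01. The log2 ratio of alpi.1 ranged from -0.17 to 0.12 over the settings, and that of slc15a1b from 0.60 to 0.95. cdx4 ranged from 0.72, with 5 CPM added, to 2.37, with 0.25 CPM added. No paired analysis was possible because there is 1 library per genotype, and for the same reason no library could be left out. Low counts limit cdx4 and anpepa most.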
